A study of Homo sapiens with 6 samples.

Results

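MOLT-4 is an established human line grown from T-ALL, the acute lymphoblastic leukaemia that arises from developing T cells. Its open chromatin was compared with that of the T-ALL lines TALL-1, KOPT-K1, HBP-ALL, DND-41 and CCRF-CEM. Overlapping peak intervals of the 6 lists on chromosomes 1 to 22 and X were merged into 40110 regions. Of these, 2050 set MOLT-4 apart: 1825 held an interval of MOLT-4 and of no other line (MOLT-4-only regions), and 225 held intervals of all 5 other lines and none of MOLT-4 (missed regions). Each line was profiled once by ATAC-seq, in which the Tn5 transposase cuts and tags accessible DNA. All lines were grown in RPMI-1640 with serum and antibiotics, and the labels name no treatment, genotype or control. The members were chosen by the presence or absence of a called interval in each list, so their counts are a description and carry no test. With 1 library per line, a difference between MOLT-4 and another line cannot be told apart from a difference between preparations.

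Accessible regions mark promoters, enhancers and insulators. Promoters of widely expressed genes are open in most cell types, whereas distal enhancers vary most with cell type and with the transcription factors that a leukaemia has activated. Tag density at a site also follows how many copies of that DNA a cell holds. A peak caller reports a site only when its tags exceed the local background, so a site without a call may still be accessible. Positions are in build hg19, 1-based. No annotation or genome of that build was used here, so genes, the T-cell markers of the line and sequences at these regions are not reported.

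The authors' lists held 19114 MOLT-4 intervals against 16507 to 22367 in the other lines. The sequencing depth of each library is unknown, and the tag numbers given below are not scaled for it. Only the relative pileup, defined further below, is centred within each line. The height of a region is given as its pileup (how many tags cover the summit), which was recovered from the authors' fold enrichment and −log10 p for 99.9% or more of the intervals of every list. The −log10 p is the authors' own, measures a summit against the background of its own library, and is used only within a list.

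MOLT-4-only regions made up 4.55% of all merged regions, where regions of any single line made up 43.2%. Missed regions made up 0.561%, where regions lacking any 1 line made up 6.53%. Relative to its own list, 9.62% of the 18976 MOLT-4 regions were MOLT-4-only (exact Clopper-Pearson 95% interval 9.20% to 10.0%, counting error only, here and below). The other lines ranged from 8.04% in DND-41 to 28.9% in CCRF-CEM, and MOLT-4 ranked below CCRF-CEM and HBP-ALL (21.3%) alone. Its interval overlapped that of TALL-1, the next in order (9.12%; 8.68% to 9.57%). Of the 9278 regions called in all 5 other lines MOLT-4 missed 2.43% (2.12% to 2.76%). The corresponding shares were 2.38% in DND-41, 2.97% in KOPT-K1, 3.17% in HBP-ALL, 6.51% in TALL-1 and 9.69% in CCRF-CEM, and the intervals of DND-41 (2.08% to 2.71%) and KOPT-K1 (2.63% to 3.33%) overlapped that of MOLT-4.

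MOLT-4-only regions were weaker and narrower than the regions MOLT-4 shared with other lines. Their pileup ran from 7 to 125 tags with a median of 12, over a median local background of 1.36 tags, and their fold enrichment had a median of 5.22. Pileup in MOLT-4 rose with the number of lines that shared a region: the median was 13 tags with 1 further line, 15 with 2, 17 with 3, 21 with 4 and 36 where all 6 lines had a call. MOLT-4 interval width rose along with it, from a median of 293 bp at MOLT-4-only regions to 467 bp at regions of 5 lines and 688 bp at regions of all 6. Only 72 MOLT-4-only intervals (3.95%) held several summits, against 18.2% of all MOLT-4 intervals. The share of regions that were MOLT-4-only fell from 32.3% (29.5% to 35.3%) at a −log10 p of 5 to 6 to 6.93% at 10 to 20 and 0.904% (0.697% to 1.15%) at 20 and over. Regions held by a single other line were similar, with a median pileup of 13 or 14 tags and a median width of 281.5 bp in TALL-1 to 320.5 bp in CCRF-CEM. Of the MOLT-4-only regions, 513 reached a −log10 p of 10 and 64 reached 20.

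**Figure D1:**
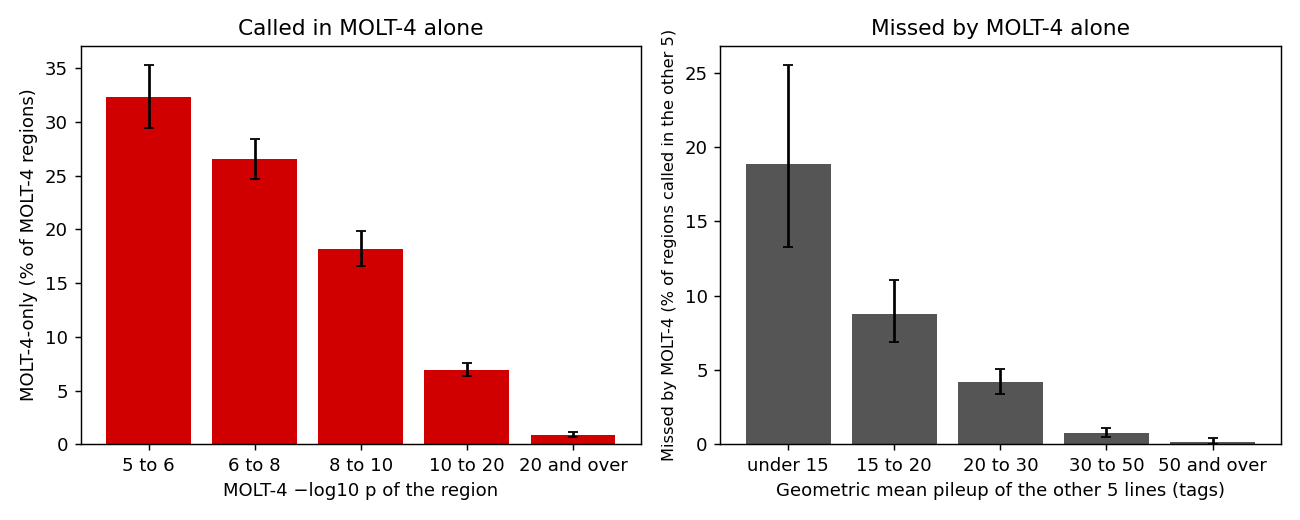
Left, the share of MOLT-4 regions called in MOLT-4 alone (percent, bars) by the MOLT-4 −log10 p; right, the share of regions called in the other 5 lines that MOLT-4 missed (percent, bars) by the geometric mean pileup of those lines in tags. Error bars are exact 95% binomial intervals; the left bars fall from 32.3% to 0.904% and the right ones from 18.8% to 0.157%.

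At the edge of the rule, the 5 weakest MOLT-4-only regions had a −log10 p of 5.004 to 5.005. Just outside it lay 168 regions of MOLT-4 and 1 other line in which the other line's −log10 p was below 6. Regions of exactly 2 lines including MOLT-4 numbered 2001. HBP-ALL was the partner in 658 of them (32.9% of MOLT-4's pairs and 29.0% of HBP-ALL's), CCRF-CEM in 485 (24.2% and 22.3%) and KOPT-K1 in 392 (19.6% and 24.1%). DND-41 was the partner in 229 (11.4% and 14.4%) and TALL-1 in 237 (11.8% and 19.5%). HBP-ALL and CCRF-CEM also had the longest lists.

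The strongest MOLT-4-only region was chr7:151722483-151723159, with a −log10 p of 55.1 and 66 tags over a background of 4.12. The nearest region with another line's interval lay 77.2 kb away, and the nearest region shared by all 6 lines was 256 kb away. The second, chr4:98554847-98555374, had the highest fold enrichment of all MOLT-4-only regions, 15.2, with 53 tags over 2.54. The third, chr4:85503767-85504578, had 59 tags over 4.46 and lay 1097 kb from a shared region. On the same chromosome chr4:96102217-96102965 had 46 tags and lay 7.14 kb from a region of 1 other line. Chromosome 7 held 3 more of the 12 strongest. Of these chr7:156432849-156433866 was the widest of the 12, at 1018 bp, with 65 tags over 6.05. At chr7:82792062-82792480 there were 37 tags over 2.03, with no region of another line within 303 kb and no shared region within 1275 kb. The last, chr7:145715909-145716435, had 33 tags over 1.59 and a fold enrichment of 13.1.

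The remaining strong regions lay on 4 chromosomes. At chr9:10612666-10613257 and chr8:12990398-12990987 the pileup was 48 tags each, over backgrounds of 3.45 and 3.89. At chr11:72532999-72533695 there were 49 tags, 6.93 kb from a shared region, and at chr11:23673927-23674503 there were 39, 822 kb from one. At chr17:73521564-73521989 there were 44 tags, 8.54 kb from a shared region. Thus 2 of the 12 had a region of all 6 lines as their nearest neighbour, and the other 10 lay 251 kb or more from any shared region. Among the 64 MOLT-4-only regions with a −log10 p of at least 20, chromosome 7 held 10, chromosome 4 held 8, and chromosomes 3 and 8 held 7 each. Of all 1825 MOLT-4-only regions chromosomes 7, 4, 3 and 8 held 96, 153, 140 and 81. Of the 18976 MOLT-4 regions they held 1037, 1021, 1207 and 863. Whether strong regions were more frequent on any chromosome was not tested.

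The widest MOLT-4-only intervals were not the strongest. They were chr7:124404883-124406188 (1306 bp, 34 tags), chr4:78977667-78978938 (1272 bp, 34 tags) and chr6:150920938-150922036 (1099 bp, 28 tags), each more than 150 kb from a shared region. A few MOLT-4-only regions stood on a high local background, and they were picked out for that value. The most extreme was chr1:567790-568143, with 125 tags over a background of 82.4, a fold enrichment of only 1.51 and a −log10 p of 5.30. It lay 259 bp from chr1:568403-569100, a region that counts among the missed ones. Both kinds of member thus came from the same short stretch of chromosome 1, where MOLT-4 had a call and so did the other 5 lines. The next 2 were chr19:18391168-18391567 (48 tags over 17.6) and chr5:100237663-100237882 (28 over 11.4), 0.435 and 0.641 kb from another region.

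MOLT-4-only regions lay apart from the regions that all 6 lines shared. Their median distance to the nearest shared region was 110 kb (quartiles 37.4 and 291 kb). Shared regions themselves lay a median of 51.4 kb from the next one. The distance shortened as more lines took part: it was 101 kb for MOLT-4 regions with 1 further line, 86.3 kb with 2, 72.3 kb with 3 and 57.3 kb with 4. Only 114 of the 1825 (6.25%) lay within 10 kb of a shared region, and 262 (14.4%) lay more than 500 kb away. Among the other lines the median distance of line-only regions was 75.4 kb in TALL-1, 96.6 kb in KOPT-K1, 108 kb in DND-41, 116 kb in HBP-ALL and 208 kb in CCRF-CEM. MOLT-4 stood in the middle of this order, next to DND-41. The nearest region with another line's interval was a median of 21.97 kb away. It belonged to 1 other line alone in 762 cases (41.8%) and to all 6 lines in 385 (21.1%), and it held a MOLT-4 interval in 839 (46.0%).

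**Figure D2:**
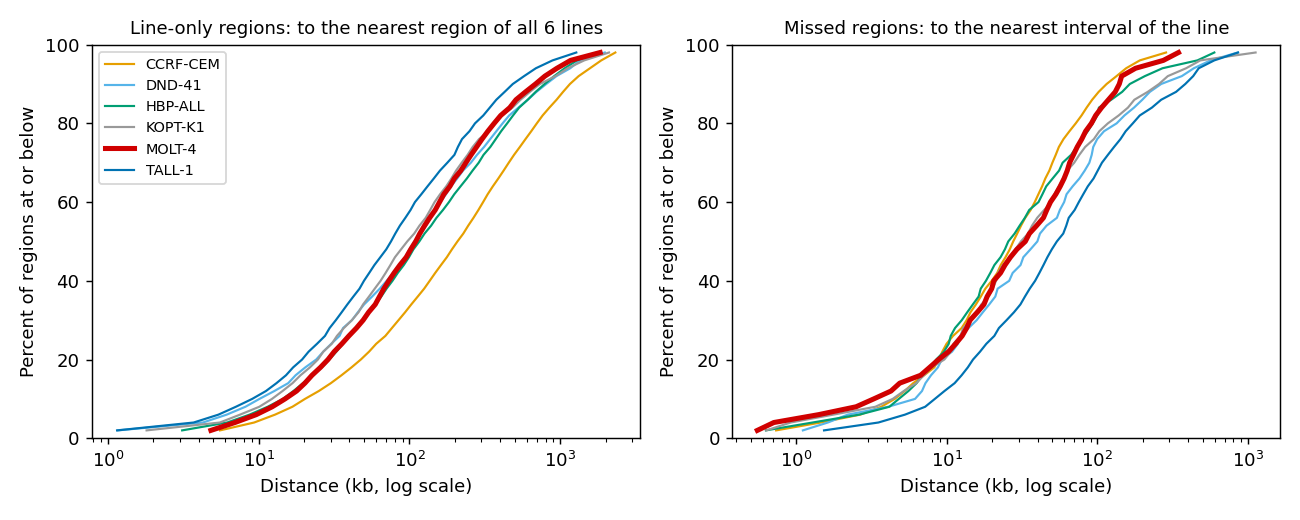
Cumulative share of regions (percent) by distance in kb on a log scale, 1 curve per line, with MOLT-4 drawn thick. Left, from line-only regions to the nearest region of all 6 lines, where the MOLT-4 median of 110 kb falls among those of the other lines; right, from regions missed by a line to the nearest interval of that line, where the MOLT-4 median is 33.2 kb.

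Neighbouring MOLT-4-only regions were a median of 846 kb apart (quartiles 277 and 2071 kb). The spacing was longer in KOPT-K1 (919 kb) and DND-41 (902 kb) and shorter in TALL-1 (765 kb), HBP-ALL (342 kb) and CCRF-CEM (231 kb). With gaps of at most 100 kb, 412 of them (22.6%) fell into groups of 2 or more. The share was 25.3% in TALL-1, 26.3% in KOPT-K1 and 27.2% in DND-41, although these lines had fewer line-only regions, and it reached 40.5% in HBP-ALL and 48.9% in CCRF-CEM. Groups of at least 3 numbered 30 in MOLT-4 against 37 in DND-41, 38 in TALL-1 and 44 in KOPT-K1.

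The largest group held 6 MOLT-4-only regions within 113 kb, chr1:228645143-228758197, where the 5 other lines had 1 or 2 regions each. MOLT-4 had 7 regions there, counting the 6 members, which by the rule no other line can hold. The first member, chr1:228645143-228646132, had 51 tags, and chr1:228652162-228652643 had 48 with a −log10 p of 31.2. Between them lay chr1:228651521-228651789 with 22 tags. The members at the far end, chr1:228756450-228756880 and chr1:228757842-228758197, had 17 and 14 tags, and chr1:228688770-228689000 had 7. The 1 shared region inside the span showed a MOLT-4 pileup close to that elsewhere, at 0.18 log2 above its usual ratio to the other lines.

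The second group held 5 members within 151 kb, chr10:82082705-82233679, with 29 tags at chr10:82116455-82116678 and 7 to 20 at the rest. MOLT-4 had 8 regions in this span, counting the 5 members, and the other lines 2 to 4. At its 2 shared regions MOLT-4 was low, at −0.54 and −0.24. At chr22:50050962-50221095, 4 of the 5 regions were MOLT-4-only, with 8 to 26 tags, and 4 of the other lines had no region at all there. At chr2:219824139-220065627 there were 4 MOLT-4-only regions of 10 to 19 tags among 4 regions shared by all lines. The other groups of 4 were chr2:240470489-240549024, chr3:71711759-71834646 and chr12:124385649-124509316, with 9 to 22 tags. In all of these groups the members count as MOLT-4 regions, and by the rule no other line can hold them. A higher MOLT-4 count of regions in such a span is thus built in.

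By chromosome, the MOLT-4-only share of MOLT-4 regions ran from 6.19% on chromosome 19 to 16.1% on chromosome 21. Chromosome 21 had 38 of 236 (11.7% to 21.4%), chromosome 4 had 153 of 1021 (15.0%; 12.9% to 17.3%) and chromosome 3 had 140 of 1207 (11.6%). The lowest shares were those of chromosome 19 (56 of 905), chromosome 18 (6.75%, 16 of 237) and chromosome 14 (7.03%, 41 of 583). Line-only shares spread more widely over the chromosomes in the other lines, from 1.89% to 13.4% in DND-41, 1.51% to 13.3% in KOPT-K1, 10.1% to 30.6% in HBP-ALL, 4.72% to 29.1% in TALL-1 and 2.86% to 39.3% in CCRF-CEM. The extremes of MOLT-4 were partly shared. Chromosome 19 also had the lowest line-only share in CCRF-CEM, DND-41, HBP-ALL and KOPT-K1, but in TALL-1 it was chromosome 12. Chromosome 21 also had the highest share in DND-41 and TALL-1, although in KOPT-K1 it stood at only 3.01%. Chromosome 4 had the highest share in CCRF-CEM and KOPT-K1, and chromosome 18 in HBP-ALL. The MOLT-4-only regions of chromosome 21 had 7 to 26 tags with a median of 13, and those of chromosome 4 had 7 to 59 with a median of 12. Their median distances to a shared region were 86.0 kb and 190 kb.

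The 225 missed regions were of middling height in the other lines. The median pileup there was 21 tags in TALL-1, KOPT-K1 and HBP-ALL, 23 in DND-41 and 22 in CCRF-CEM. At the regions of all 6 lines these medians were 44, 36, 39, 40 and 31. Among the 5 lines TALL-1 was most often the weakest by rank within its list, at 66 missed regions, and CCRF-CEM least often, at 28. The missed share fell with the geometric mean pileup of the 5 lines, from 18.8% (13.2% to 25.5%) below 15 tags to 4.18% between 20 and 30 and 0.157% (0.0428% to 0.402%) at 50 tags and over. Missed regions had a median width of 626 bp and lay a median of 68.7 kb from a region of all 6 lines (quartiles 19.99 and 144 kb). This was longer than in CCRF-CEM (43.2 kb) and shorter than in TALL-1 (92.2 kb). Neighbouring missed regions lay a median of 7.56 Mb apart, more than in any other line (0.879 to 5.72 Mb).

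Few missed regions had a MOLT-4 interval close by, and few regions missed by another line had an interval of that line close by. Within 1 kb lay 29 of 971 in CCRF-CEM, 4 of 221 in DND-41 and 10 of 296 in HBP-ALL. In KOPT-K1 it was 12 of 277 and in TALL-1 9 of 630. All were smaller shares than the 12 of 225 in MOLT-4. The median distances in these lines ran from 25.6 kb in HBP-ALL to 53.8 kb in TALL-1. The nearest MOLT-4 interval was a median of 33.2 kb away (quartiles 12.2 and 74.9 kb). It lay within 1 kb at 12 of the 225, among them chr2:134878081-134879026, with a gap of 52 bp, and chr20:361294-362067, with a gap of 294 bp. At the first of these the 5 lines had 16 to 28 tags and at the second 11 to 27. It lay more than 500 kb away at 4: chr9:40791482-40792347 (2564 kb), chr5:28216922-28217502 (1165 kb), chr5:98937637-98938327 (564 kb) and chr11:24768729-24769575 (529 kb). At chr5:28216922-28217502 the unscaled pileups of the other lines differed widely. There were 68 tags in DND-41, 57 in TALL-1, 20 in CCRF-CEM, 9 in KOPT-K1 and 15 in HBP-ALL.

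Missed regions were ordered by the lowest of their ranks by −log10 p within the 5 other lists, and the first was chr12:31881619-31882470. Its pileup was 63 tags in TALL-1, 73 in KOPT-K1, 68 in HBP-ALL, 96 in DND-41 and 83 in CCRF-CEM, over local backgrounds of 4.89 to 6.88. MOLT-4 had its nearest interval 69.1 kb away. The second was the stretch on chromosome 1 already described, chr1:568403-569100, with 89 to 167 tags over backgrounds of 21.8 to 26.9. At chr6:83775233-83775826 the 5 lines had 51, 59, 50, 67 and 61 tags (in the same order), and at chr1:68962350-68963278 they had 33, 59, 56, 80 and 125. These 4 were the only missed regions whose mean pileup reached 50. A MOLT-4 interval lay 1.43 kb from the region on chromosome 6 and 189 kb from chr1:68962350-68963278.

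Among the other highly ranked missed regions, chr5:70882754-70883571 had 34 to 55 tags and chr7:5436592-5437284 had 32 to 56. At chr11:123985706-123986565 the pileups were even across lines, at 28 to 43. They were less even at chr5:95144460-95144769, with 76 tags in KOPT-K1 and 27 in HBP-ALL, and at chr21:15351928-15353195, with 93 in TALL-1 and 21 in HBP-ALL. The latter was the only missed region of chromosome 21. At chr13:105462564-105463361 there were 32 to 54 tags. On chromosome 6, chr6:137880662-137881439 and chr6:126307389-126308092, had 20 to 61 and 26 to 65 tags.

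Groups of missed regions were few. With gaps of at most 1 Mb there were 3 groups of at least 3. At chr5:95053898-95681387 MOLT-4 missed 4 regions and had 9 of 22 regions in the span, where the other lines had 11 to 15. At its first member, chr5:95053898-95054455, the pileup was 24 in TALL-1, 25 in KOPT-K1, 15 in HBP-ALL, 32 in DND-41 and 61 in CCRF-CEM. At chr14:60431641-61919666 MOLT-4 missed 4 regions and had 11 of 31, against 14 to 22 in the others. At chr2:84541869-85665587 it missed 3 and had 13 of 27, against 14 to 19. These counts include the missed regions, which by the rule all 5 other lines hold and MOLT-4 lacks. A lower MOLT-4 count is thus built in and is no result of its own. In the first 2 spans MOLT-4 was low at every region shared by all lines, by the relative pileup defined next (−0.90 to −0.16 at 5 regions and −0.70 to −0.38 at 4). In the third span its values ran from −1.30 to 0.15 over 8 shared regions.

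Relative pileup is the log2 ratio of a line's pileup to the mean of the other 5 on the log scale, centred on its median over the 9039 regions of all 6 lines with recovered pileups. These regions are no members, but they come from the same libraries, so the values describe and do not test. The chromosome medians of MOLT-4 ran from −0.72 on chromosome 18 to 0.55 on chromosome 19. Missed regions followed them. MOLT-4 missed 11 of 145 regions on chromosome 18 (7.59%; 3.85% to 13.2%), 11 of 211 on chromosome 13 (5.21%; relative pileup −0.27) and 27 of 573 on chromosome 6 (4.71%; −0.15). It missed 1 of 458 on chromosome 19 (0.218%), 2 of 348 on chromosome 16 (0.575%; relative pileup 0.30) and 1 of 161 on chromosome 22 (0.621%; 0.38). These shares rest on few regions and moved by over 1.5 times when 1 line was left out. A region then needs fewer calls, so the missed count also rose over all chromosomes. It went from 225 to 401 without TALL-1, 373 without CCRF-CEM and 337 without KOPT-K1. The chromosome shares were not corrected for this common rise. On chromosome 18 the share was 12.3% without CCRF-CEM or without TALL-1, on chromosome 13 it was 8.04% without KOPT-K1, and on chromosome 6 it was 7.09% without TALL-1. On chromosome 19 it was 1.85% without CCRF-CEM, 0.426% without DND-41 and 0.421% without KOPT-K1. On chromosome 16 it was 2.17% without HBP-ALL, 1.63% without KOPT-K1, 1.49% without CCRF-CEM and 1.38% without TALL-1. On chromosome 22 it was 1.68% without CCRF-CEM and 1.22% without DND-41. Over the 23 chromosomes Spearman's rho between missed share and relative pileup was −0.85 in MOLT-4 and −0.43 to −0.71 in the other lines. The points share their library and differ in how densely regions lie. For MOLT-4-only regions rho was 0.26, against −0.35 to 0.90 elsewhere.

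**Figure D3:**
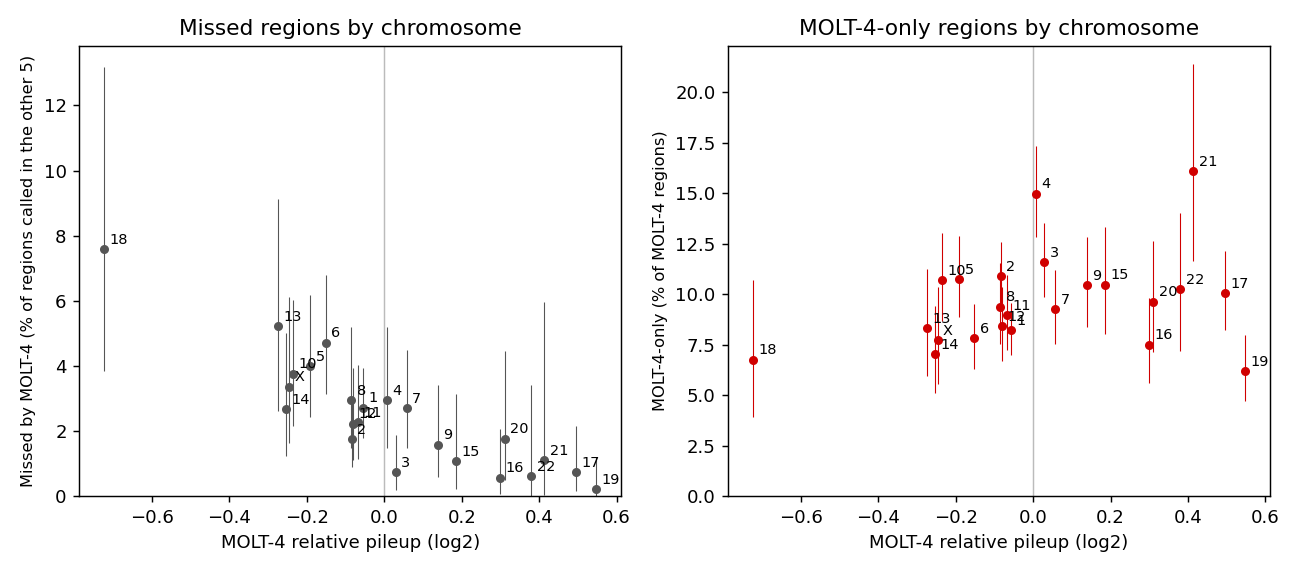
Each point is a chromosome, with the MOLT-4 relative pileup (log2) on the x axis and the share of missed regions (left) or of MOLT-4-only regions (right) in percent on the y axis; bars are exact 95% binomial intervals. Chromosome 18, at −0.72, has the highest missed share (7.59%), and chromosome 21 the highest MOLT-4-only share (16.1%).

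On chromosome 18 the 11 missed regions had 15 to 30 tags in TALL-1, 11 to 30 in KOPT-K1, 12 to 35 in HBP-ALL, 10 to 46 in DND-41 and 10 to 55 in CCRF-CEM. The strongest single values were 55 tags in CCRF-CEM at chr18:52385012-52385838 and 47 at chr18:29620688-29621295, and 46 in DND-41 at chr18:8755401-8756030. The 16 MOLT-4-only regions of this chromosome had 9 to 34 tags. The highest, chr18:77005561-77005993, lay with 3 others between 77005561 and 77226079. The relative pileup of the other lines on chromosome 18 was −0.02 to 0.27. The 1 missed region of chromosome 19, chr19:55972904-55973427, had 70 tags in TALL-1, 38 in KOPT-K1, 50 each in HBP-ALL and DND-41 and 17 in CCRF-CEM.

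Pooled over all chromosomes, the missed share was higher in stretches of low relative pileup, although most missed regions lay elsewhere. This was examined in 10 Mb windows, of which 270 held at least 10 shared regions. In the 18 windows where the MOLT-4 median was −0.5 or lower, MOLT-4 missed 32 of 399 regions (8.02%; 5.55% to 11.1%). In the 238 windows between −0.5 and 0.5 it missed 184 of 7896 (2.33%), and in the 14 windows at 0.5 or higher 1 of 765 (0.131%; 0.00331% to 0.726%). Leaving out each other line in turn gave 8.99% to 10.6% in low windows and 0.348% to 0.897% in high ones. The MOLT-4-only share moved less, from 7.46% (5.65% to 9.62%) to 9.34% and 10.4% (8.96% to 11.9%), and its intervals in the low and high windows overlapped. Without HBP-ALL the low windows stood at 11.9% and the high ones at 12.7%. The 3 kinds of window also differed in density, with a median of 19, 30 and 50.5 shared regions, and the part of density in these shares was not tested. Among regions whose mean pileup in the other lines was 20 to 30 tags, MOLT-4 missed 13 of 60 in low windows (21.7%; 12.1% to 34.2%), 78 of 1893 in the middle ones (4.12%) and 0 of 308 in the high ones, which allows up to 1.19%. At 50 tags and over it missed 1 of 176 in low windows (0.568%; 0.0144% to 3.12%) and 0 of 56 in high ones (up to 6.38%), which overlap. Of the 18 low windows 7 were on chromosome 18 and 4 on chromosome 6, and of the 14 high windows 5 were on chromosome 17 and 4 on chromosome 19. The contrast between windows thus overlaps with that between chromosomes and was not separated from it. On chromosome 19 as a whole the relative pileup was −0.81 in CCRF-CEM, −0.31 in KOPT-K1, −0.13 in DND-41, 0.31 in HBP-ALL and 0.45 in TALL-1. On chromosome 17 it was −0.77, −0.03, −0.21, 0.18 and 0.30, in the same order.

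The lowest window lay at the start of chromosome 7. From 0 to 10 Mb the median relative pileup of MOLT-4 over 49 shared regions was −1.08, where the other lines stood at 0.03 to 0.36. None of the 69 MOLT-4 regions there was MOLT-4-only, and 6 of the 55 regions of all other lines were missed (10.9%). The 6 were chr7:962765-963327, chr7:2281473-2282385, chr7:5436592-5437284, chr7:5462980-5464056, chr7:7758868-7759468 and chr7:8215802-8216798. The third of these had 41 tags in TALL-1, 56 in KOPT-K1, 32 in HBP-ALL, 48 in DND-41 and 40 in CCRF-CEM. The fifth had 10 in TALL-1 and 39, 48, 50 and 41 in the other lines, in the same order. By 5 Mb parts the MOLT-4 median was −0.79 from 0 to 5 Mb, −1.23 from 5 to 10 Mb and −2.001 over the 4 shared regions from 10 to 15 Mb. From 15 to 70 Mb the parts lay between −0.47 and −0.13.

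The far end of the same chromosome differed. From 150 to 160 Mb MOLT-4 stood at 0.52 over 43 shared regions, with the others at −0.21 to 0.27. Here 23 of 119 MOLT-4 regions were MOLT-4-only (19.3%), with 11 to 66 tags, and 0 of 43 were missed. The strongest MOLT-4-only region of all, chr7:151722483-151723159, and chr7:156432849-156433866 both lay in it, as did chr7:151328960-151329742 with 42 tags. Chromosome 7 as a whole stood at 0.06, which does not show this contrast between its ends.

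The last window of chromosome 21, from 40 to 50 Mb, was the highest. MOLT-4 stood there at 1.17 over 29 shared regions, HBP-ALL at 0.30, DND-41 at 0.01, TALL-1 at −0.22, CCRF-CEM at −0.48 and KOPT-K1 at −1.14. Its parts differed: from 40 to 45 Mb TALL-1 stood above MOLT-4 (0.92 against 0.61), and from 45 to 50 Mb below it (−0.35 against 1.21). On chromosome 21 as a whole TALL-1 stood at 1.22 and MOLT-4 at 0.41. The window held 21 of the 38 MOLT-4-only regions of chromosome 21, which were 22.1% of the 95 MOLT-4 regions in it. Their pileup was 9 to 25 tags, highest at chr21:43638988-43639516, next to chr21:43640359-43640615 with 21. None of 30 regions was missed. On chromosome 6, 3 windows from 70 to 100 Mb stood at −0.86, −0.73 and −0.74, with CCRF-CEM at 0.70 to 0.94. MOLT-4 missed 2 of 18, 3 of 24 and 1 of 19 regions there, among them chr6:83775233-83775826 described above.

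**Figure D4:**
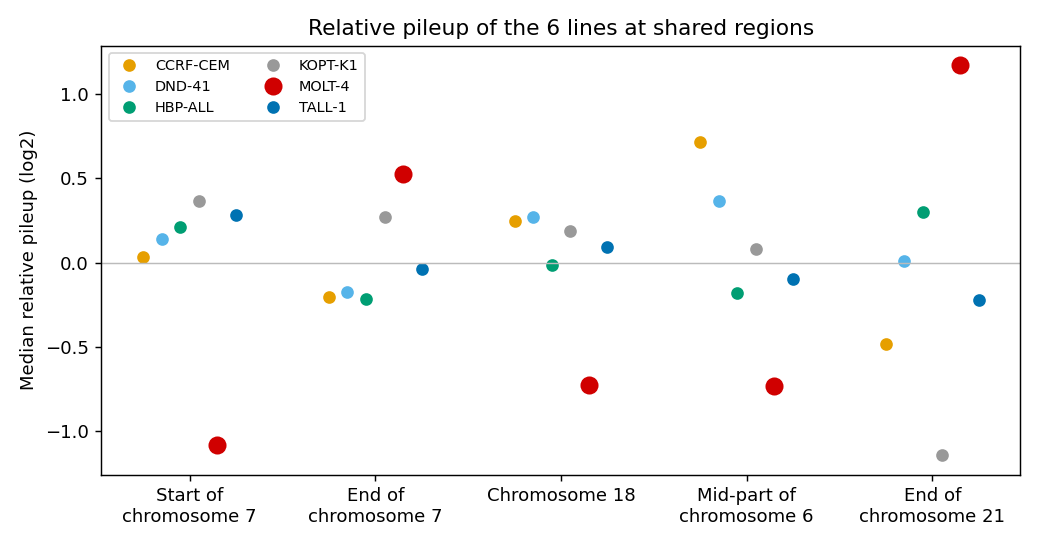
Median relative pileup (log2, y axis) of each of the 6 lines, 1 point per line, over the shared regions of 5 stretches: the first 10 Mb window of chromosome 7 and its last, chromosome 18, a window of chromosome 6 (80 to 90 Mb) and the last window of chromosome 21. MOLT-4, the large points, is lowest at the start of chromosome 7 (−1.08), on chromosome 18 (−0.72) and on chromosome 6 (−0.73), and highest at the ends of chromosomes 7 (0.52) and 21 (1.17).

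Shared regions near members leaned the same way as the members. Within 10 kb of a MOLT-4-only region the median relative pileup of MOLT-4 was 0.15 (interval of the median 0.03 to 0.30, 120 regions), and between 10 and 30 kb it was 0.22. Beyond 1000 kb from any MOLT-4-only region it was −0.21 over 2142 regions. Within 10 kb of a missed region it was −0.35 (−0.54 to −0.04, 30 regions), between 30 and 100 kb −0.16, and beyond 1000 kb 0.03. These intervals cover the spread between regions and not between libraries. The medians of the other lines leaned likewise around their own members, though not clearly in every line. Within 10 kb of line-only regions the intervals of HBP-ALL (−0.04 to 0.06) and KOPT-K1 (−0.02 to 0.19) took in both signs. So did that of HBP-ALL within 10 kb of missed regions (−0.48 to 0.07). Within 10 kb of their line-only regions they stood at 0.02 to 0.23, and within 10 kb of their missed regions at −0.32 to −0.12, so MOLT-4 had the lowest value near missed regions. Its interval there held the values of all 5 other lines, and the difference was not tested.

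**Figure D5:**
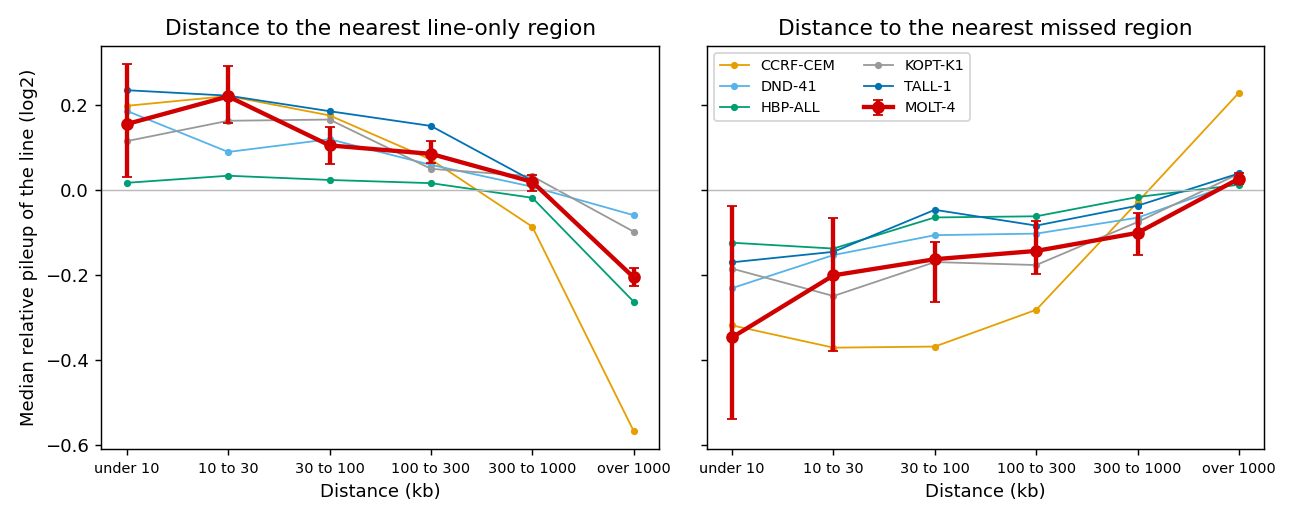
Median relative pileup of each line (log2, y axis) at regions of all 6 lines, by distance in kb (x axis) to the nearest line-only region (left) or missed region (right) of that line. MOLT-4, the thick line with intervals of the median, goes from 0.15 to −0.21 on the left and from −0.35 to 0.03 on the right.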

How the data were processed

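ATAC-seq peak lists of 6 lines were analysed, 1 library each. Per the submitters' processing notes Bowtie2, Picard, SAMtools and MACS2 2.1.1.2016030 were used with build hg19; their settings, and any shift for the Tn5 cut, are not stated in the labels. The deposited narrowPeak lists, which have no header, give per summit a score (unused), a fold enrichment ratio over the local background, and the −log10 p and −log10 q; the lowest deposited −log10 p is about 5 in each list.

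List entries with the same interval were joined, keeping the strongest summit, and intervals overlapping by at least 1 bp were merged. Pileups below 250 were recovered as the whole tag number that fits the authors' fold and −log10 p within 0.001. Distances run between region edges. Merging, pileups and distances were tested on simulated data. No replicate exists, so no test between lines was run.

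Named regions follow a rule: the 12 strongest MOLT-4-only regions, the 12 missed regions with the highest lowest rank, the 3 widest, groups of at least 4 MOLT-4-only (at most 100 kb apart) or 3 missed regions (at most 1 Mb), and the 3 highest and lowest chromosomes. Regions named for a small count, a high background or a 10 Mb window, and those windows, were chosen after their values were seen. The members and lists were chosen with earlier results of these data known. A planned check of genes and motifs was not done, since no hg19 genome was used here. The work used scipy 1.17.1, pandas 2.3.3, numpy 2.4.6 and matplotlib 3.10.9 under Python 3.11.15.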

Additional observations from a re-analysis of the deposited data

Results flagged for a closer look

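Of 83 quantities compared over the 6 lines, 2 put MOLT-4 far from the rest by Dixon's gap ratio at its 95% critical value. The gap ratio is the gap to the nearest line over the whole range. By chance some line is flagged in about 1 in 20 groups, but only flags of MOLT-4 were counted, which are rarer. Some quantities were windows chosen after their values were seen, and the lines are not replicates. The 2 flags therefore cannot be set against that rate. The first was the relative pileup on chromosome 18, −0.72 in MOLT-4 against −0.02 to 0.27 in the other lines, with a gap ratio of 0.713. The second was the relative pileup on chromosome 7 from 0 to 10 Mb, −1.08 against 0.03 to 0.36, with a gap ratio of 0.769; this window was chosen for its low MOLT-4 value. The MOLT-4 list also held 38 lines outside chromosomes 1 to 22 and X, which no comparison used; the other lists held 31 to 89.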

How the results depend on the processing

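No paired analysis was possible because each line has 1 library and the result comes from no test. Both member counts follow a threshold changed on 1 side only, whereas the missed count moved little when it changed in every list (269 regions) or with equal numbers of intervals (211). With a −log10 p of at least 10 in every list there were 927 MOLT-4-only regions (median width 394 bp, 138.5 kb from a shared region, spaced 1590 kb, 5 groups of at least 3). With that threshold in the MOLT-4 list alone there were 513 MOLT-4-only (390 bp, 154.9 kb, 3026 kb, 1 group) and 788 missed regions. With it in the other lists alone there were 3191 MOLT-4-only (305 bp, 112.3 kb, 422 kb, 127 groups) and 79 missed regions. With equal numbers of the strongest intervals the width was 328 bp, the distances to a shared region 129.3 kb (MOLT-4-only) and 77.7 kb (missed), the spacing 1021 kb and the groups 15. With 200 bp around the strongest summit the width was 200 bp by construction, missed regions lay 12.9 kb from a MOLT-4 interval, the spacing was 609 kb and the groups numbered 49. Group gaps of 50 and 200 kb gave 11 and 66 groups. Otherwise the cause was not tested. Leaving out each other line in turn gave 2061 to 2502 MOLT-4-only regions (295 to 303 bp wide, 89.5 to 108.8 kb from a shared region, spaced 587 to 718 kb, 37 to 60 groups) and 298 to 401 missed regions (373 without CCRF-CEM and 401 without TALL-1), since a region then needs fewer calls. In 10 Mb windows those settings gave a missed share of 8.99% to 10.6% (low) and 0.348% to 0.897% (high), and a MOLT-4-only share of 7.68% to 11.9% (low) and 10.95% to 13.7% (high). Window sizes and the reference for relative pileup were added after seeing the data: with 5 Mb, 20 Mb or the median of the lines, low windows kept the higher missed share (8.39%, 8.45%, 8.11%) over high ones (0.231%, 0.410%, 0.137%). In all 47 of these values moved and 75 did not, and of the chromosome shares 43 moved and 89 did not. The lists hold no values below the calling threshold, so how many missed regions fell just under it in MOLT-4 is not known.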
